A study of Mus musculus with 8 samples.

Results

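Outside the protein-coding genes of the kidney cortex genome, 28108 regions within 100 kb of a gene carried peaks of Mta2, Mbd3 and Zbtb7a together. They were found by merging the 3 peak lists on the 19 autosomes and chromosome X into regions of intervals that share at least 1 bp. A region was kept if it held a peak of every factor, was under 4000 bp wide, and had its midpoint outside every protein-coding gene, more than 1 kb and at most 100 kb from the nearest gene end. These three-factor regions near genes were 28108 of 164813 merged regions and 27.8% of the 101152 regions with all 3 factors. The other regions with all 3 factors lay inside genes (50740), within 1 kb of a gene end (14019) or over 100 kb from any gene (7763), and 522 were 4000 bp or wider. Regions were selected on the presence of a peak in all 3 lists and on position, so their folds are given as a description with no test.

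The study immunoprecipitated chromatin of mouse kidney cortex with antibodies against the 3 factors and compared it with Input chromatin. The same 2 animal numbers stand in the titles of all 4 groups (Mta2, Mbd3, Zbtb7a and Input), so the groups share their 2 mice. The mice were 2 months old and had the genotype Mta2flx/flx, that is, with loxP-flanked Mta2 alleles, and the labels name no Cre and no treatment. Tissue was fixed with 2 mM disuccinimidyl glutarate for 30 min and then with 1% formaldehyde for 10 min, per the labels' protocols. There was 1 peak list per factor for both mice, so no value carries an SD or an n over animals. Libraries had a stated depth of 100 M reads, sequenced as pairs, and the depth reached by each library was not analysed here. Whole cortex was used, so a region cannot be assigned to a cell type, and a fold set by few strongly bound cells cannot be told apart from one set by many weakly bound cells.

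Mta2 and Mbd3 belong to NuRD, the nucleosome remodelling and deacetylase complex, which couples chromatin remodelling by a CHD-family ATPase to removal of acetyl groups from histones. Mta proteins hold the deacetylases and Mbd3 links them to the remodelling module. NuRD is known to work at promoters and at distal regulatory elements. Zbtb7a, of the POK family, binds DNA through zinc fingers and can recruit corepressors. Intergenic regions near genes hold many enhancers as well as the starts of non-coding RNA genes, and the latter can be placed by annotation.

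Sequences are shown for the kinds of region in which the factors can be set beside a known transcript. First, 39 microRNA genes were overlapped by 27 regions, and 36 of these genes matched a mature sequence in the RefSeq table for GRCm38.p6 (the coordinates of mm10). The 12 microRNAs below were chosen after values were seen, because their regions had high folds, because they share a seed, or, for miR-192 and miR-194, because they are known from kidney. Capitals mark the seed, the bases 2 to 8 that pair with a target RNA.
let-7b-5p (chr15:85707325-85707346, plus strand): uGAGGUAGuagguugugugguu
let-7c-5p (chr15:85706616-85706637, plus strand): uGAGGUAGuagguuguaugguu
let-7i-5p (chr10:122985698-122985719, minus strand): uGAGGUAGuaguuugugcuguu
miR-200b-3p (chr4:156055685-156055706, minus strand): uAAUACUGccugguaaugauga
miR-429-3p (chr4:156053916-156053937, minus strand): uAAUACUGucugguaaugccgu
miR-200c-3p (chr6:124718324-124718346, minus strand): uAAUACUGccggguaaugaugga
miR-200a-3p (chr4:156054911-156054932, minus strand): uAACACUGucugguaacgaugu
miR-193a-3p (chr11:79712009-79712030, plus strand): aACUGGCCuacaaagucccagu
miR-203-3p (chr12:112130927-112130948, plus strand): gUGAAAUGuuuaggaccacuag
miR-210-3p (chr7:141221407-141221428, minus strand): cUGUGCGUgugacagcggcuga
miR-192-5p (chr19:6264857-6264877, plus strand): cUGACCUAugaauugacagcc
miR-194-5p (chr19:6264658-6264679, plus strand): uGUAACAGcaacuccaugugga

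The let-7b, let-7c and let-7i sequences carried 1 seed, GAGGUAG, and came from regions on chromosomes 15 and 10. The seed AAUACUG was shared by miR-200b, miR-429 and miR-200c, whose genes were overlapped by regions on chromosomes 4 and 6, and miR-200a carried AACACUG. The regions reached only part of the miR-429 and miR-200c genes, and the mature sequences printed for these lie just outside them. MicroRNAs of the miR-200 family are known to keep epithelial cells from turning mesenchymal, and miR-192 and miR-194 are known as abundant in kidney. A further pair with a common seed was miR-132 and miR-212 (AACAGUC), from 1 region near Hic1.

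Second, 5 windows around starts of long non-coding RNA (lncRNA) genes are shown, each from 250 bases before to 50 bases after the start (300 bases). They are the 5 of highest mean fold rank among windows that held the strongest summits of all 3 factors, a choice made after the values were seen. Capitals mark the letters GGGCGG (a GC box, the site of Sp/Klf factors) and CCGGAAG (an ETS site) or their reverse complements.
Gm15889 (chr8:94377625-94377924, plus strand): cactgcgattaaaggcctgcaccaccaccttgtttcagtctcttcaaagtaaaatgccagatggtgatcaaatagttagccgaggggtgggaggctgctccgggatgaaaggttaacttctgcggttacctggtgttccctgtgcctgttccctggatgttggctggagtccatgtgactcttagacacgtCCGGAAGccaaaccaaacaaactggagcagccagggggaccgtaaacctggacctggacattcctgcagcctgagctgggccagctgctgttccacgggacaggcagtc
Gm40925 (chr13:41676846-41677145, plus strand): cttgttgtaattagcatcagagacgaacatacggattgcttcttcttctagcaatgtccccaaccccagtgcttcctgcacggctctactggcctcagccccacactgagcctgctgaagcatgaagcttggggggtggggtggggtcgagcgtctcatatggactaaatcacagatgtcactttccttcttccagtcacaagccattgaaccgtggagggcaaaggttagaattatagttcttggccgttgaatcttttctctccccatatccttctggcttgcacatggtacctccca
Gm33162 (chr3:101517056-101517355, minus strand): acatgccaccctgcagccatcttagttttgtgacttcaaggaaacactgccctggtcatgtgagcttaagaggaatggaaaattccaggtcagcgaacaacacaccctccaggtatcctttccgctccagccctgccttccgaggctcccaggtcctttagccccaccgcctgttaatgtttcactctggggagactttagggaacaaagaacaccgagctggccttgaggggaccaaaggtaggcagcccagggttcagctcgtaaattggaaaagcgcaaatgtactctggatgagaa
Gm34507 (chr17:4908072-4908371, plus strand): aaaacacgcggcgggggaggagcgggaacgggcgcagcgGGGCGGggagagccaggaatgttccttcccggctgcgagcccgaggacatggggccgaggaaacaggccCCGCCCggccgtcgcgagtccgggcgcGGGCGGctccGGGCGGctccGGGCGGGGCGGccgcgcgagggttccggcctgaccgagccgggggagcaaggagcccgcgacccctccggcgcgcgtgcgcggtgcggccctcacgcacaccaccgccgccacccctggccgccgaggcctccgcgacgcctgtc
1700096K18Rik (chr5:25529768-25530067, plus strand): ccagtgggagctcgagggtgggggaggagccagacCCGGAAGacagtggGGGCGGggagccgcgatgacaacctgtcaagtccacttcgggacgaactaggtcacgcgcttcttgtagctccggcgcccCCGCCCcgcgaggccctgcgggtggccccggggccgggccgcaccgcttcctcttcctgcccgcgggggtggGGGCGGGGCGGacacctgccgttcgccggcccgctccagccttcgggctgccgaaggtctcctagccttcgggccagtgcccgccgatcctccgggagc

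These 5 sequences, chosen by fold, differed in base composition. The Gm34507 window held 79.3% G or C, 49 CpG and 6 GC boxes, and the 1700096K18Rik window held 74% G or C, 33 CpG, 4 GC boxes and 1 ETS match. The Gm15889, Gm40925 and Gm33162 windows held 50.7% to 55% G or C, 7 or 8 CpG and no GC box, and Gm15889 held 1 ETS match. A match is a description of letters and not a bound site.

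Fold enrichment, the authors' ratio of signal at the summit over background, was the measure of strength, and the strongest peak of each factor stood for a region. The median fold of the 28108 regions was 7.20 for Mta2 (95% interval of the median over regions 7.09 to 7.30), 5.99 for Mbd3 (5.94 to 6.04) and 5.46 for Zbtb7a (5.45 to 5.56). The middle 50% of regions ran from 4.69 to 12.4 for Mta2, from 4.03 to 10.5 for Mbd3 and from 3.68 to 9.78 for Zbtb7a. Folds are relative to each list's own background, so their order between factors is not a result. Their median width was 583 bp, and single peaks were the rule: 260 regions held more than 1 Mta2 peak, 1011 more than 1 Mbd3 peak and 1473 more than 1 Zbtb7a peak.

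At the same distances from genes, 18590 regions held 1 or 2 of the factors, so 60.2% of regions there had all 3, beside 61.4% of all merged regions. Near genes the regions with only Mta2 were the most frequent of the other kinds (6962), followed by those with Mta2 and Mbd3 (5265), only Zbtb7a (1952), only Mbd3 (1906), Mta2 and Zbtb7a (1772), and Mbd3 and Zbtb7a (733). Their median folds ran from 2.72 for Mbd3 alone to 3.69 for Mta2 in regions shared with Mbd3. A region with a missing factor was below the authors' threshold for that factor and cannot be read as unbound.

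Fold differed little between intergenic regions near genes and regions inside genes, and was higher at gene ends. Medians for Mta2, Mbd3 and Zbtb7a were 13.8, 12.4 and 12.7 within 1 kb of a gene end and 6.99, 5.94 and 5.45 inside genes. Over 100 kb from genes they were 7.09, 5.84 and 4.97. Of all regions with 3 factors, 6.67% were in the top 10% by all 3 folds. This share was 5.43% near genes (95% exact binomial interval 5.17 to 5.70, counting error only), 14.2% at gene ends, 5.22% inside genes and 3.56% far from genes.

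**Figure D1:**
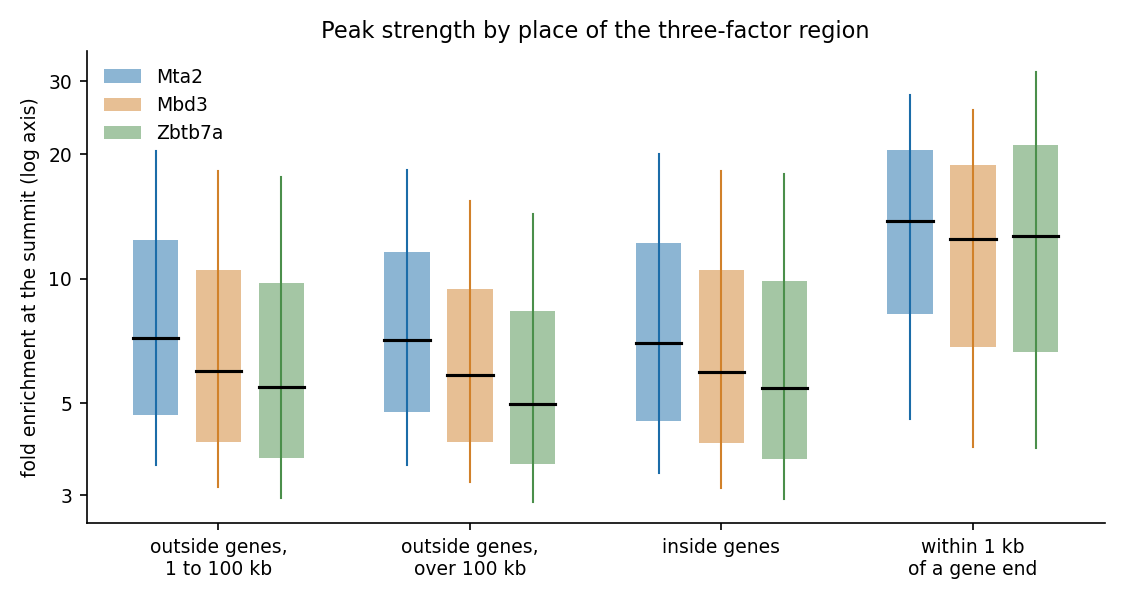
Fold enrichment (log axis) of each factor in regions with all 3 factors, by place. Boxes span the middle 50% of regions, black lines are medians and thin lines run from the 10th to the 90th percentile. The intergenic regions near genes sit close to those inside genes (Mta2 medians 7.20 and 6.99), and regions at gene ends sit higher (13.8).

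The 3 factors rose and fell together from region to region. Spearman's rho over the 28108 regions was 0.903 between Mta2 and Mbd3 folds, 0.861 between Mbd3 and Zbtb7a and 0.821 between Mta2 and Zbtb7a. The lists come from the same 2 mice, so these correlations carry no test. Fold followed region width (rho 0.653, 0.646 and 0.599 for Mta2, Mbd3 and Zbtb7a) and did not follow distance to the gene end (0.02, 0.00 and -0.02).

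The summits of the 3 factors lay close together in most regions. The distance between the outermost of the 3 strongest summits had a median of 41 bp. It was at most 50 bp in 60.4% of regions, at most 100 bp in 85.6% (85.2 to 86.0) and at most 250 bp in 95.0%. Mta2 and Mbd3 summits lay a median of 22 bp apart, and Zbtb7a summits 26 bp from either. Where the 3 positions differed, the middle summit was that of Mta2 in 35.8% of regions, of Mbd3 in 35.3% and of Zbtb7a in 28.9%. The spread narrowed with strength, from a median of 68 bp in the weakest 10% of regions by mean fold rank to 27 bp in the strongest 10%, where 95.6% had all summits within 100 bp.

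Three-factor regions thinned out with distance from genes, and the share of regions that had all 3 factors stayed near 60%. Per Mb of intergenic flank (the bases outside genes that are nearest to a given gene end), there were 53.9 regions at 1 to 2 kb, 48.5 at 2 to 5 kb, 42.8 at 5 to 10 kb, 38.0 at 10 to 20 kb, 32.7 at 20 to 50 kb and 24.2 at 50 to 100 kb. Over the whole flank of 1 to 100 kb it was 35.2 per Mb. The share with all 3 factors was 58.8% (57.0 to 60.6) in the nearest bin, 61.9% (60.9 to 63.0) at 10 to 20 kb and 57.3% (56.3 to 58.4) in the farthest. Median Mta2 fold ran only from 6.70 to 7.30 across the bins. Among chromosomes the density was lowest on X (8.03 per Mb) and ran from 28.2 on chromosome 7 to 55.7 on chromosome 11 among the autosomes, and the median Mta2 fold on X was 6.26.

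**Figure D2:**
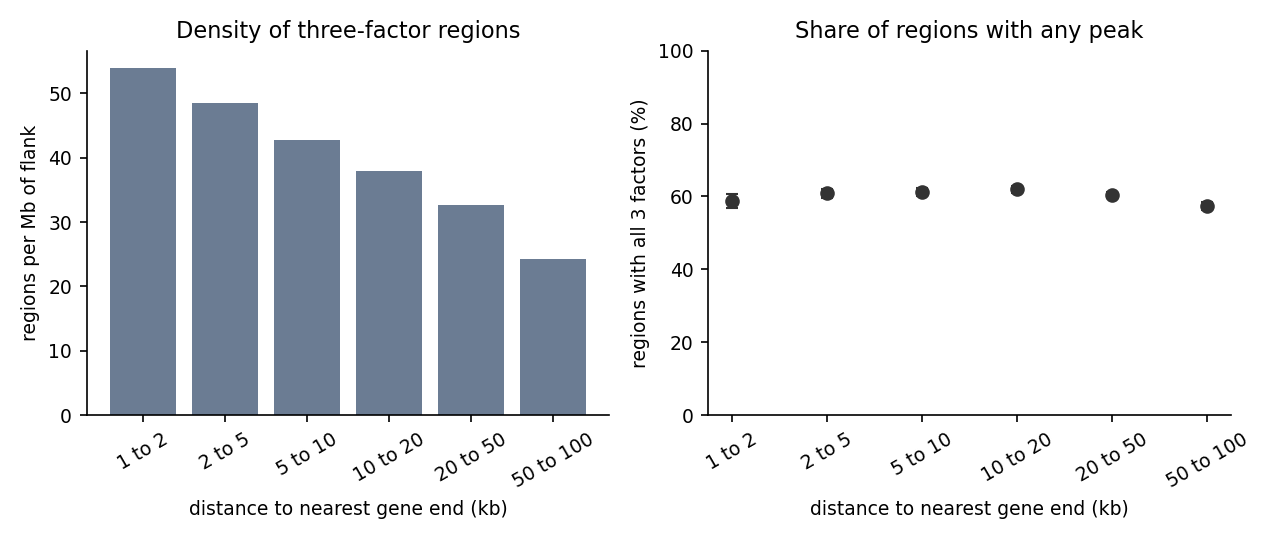
Left, three-factor regions per Mb of intergenic flank by distance to the nearest gene end in kb. Right, percent of regions with any peak at that distance that held all 3 factors, with 95% exact binomial intervals. Density falls from 53.9 to 24.2 per Mb and the share stays between 57.3% and 61.9%.

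Regions next to the limits of the definition had folds within the range of the rest. Just inside 1 kb were a region 1001 bp from Slc22a7, an organic anion transporter gene (folds 3.13, 2.92 and 3.34 for Mta2, Mbd3 and Zbtb7a), and 1 at 1002 bp from Atpif1 (7.91, 7.29 and 5.74). Just outside were regions 1000 bp from Tex2 (8.59, 7.95 and 10.1) and 999 bp from Vwa1 (12.2, 8.28 and 7.41). At 100 kb the last regions kept were near Ldb2 (99998 bp, Mta2 14.8) and Nr3c1, the glucocorticoid receptor gene (99978 bp, Mta2 4.48), and the first left out were near Foxa2 (100029 bp, Mta2 6.47) and Btg1 (100037 bp, Mta2 6.18). At the width limit, regions of 3998 bp near Cyp2d12 (Mta2 70.6) and 3982 bp near Rhod (Mta2 27.8) were kept, and a region of 4030 bp near Pcdh1 (Mta2 13.7) was not. The rule used midpoints, so 623 regions (2.22%) came within 1 kb of a gene and 22 overlapped one.

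The 5 highest regions of each factor were 9 different regions, of which those near Tob2 and Lrrc74a were among the 5 highest of all 3. The region 8825 bp from Tob2, a member of the antiproliferative Tob family, had folds of 88.3 for Mta2, 97.9 for Mbd3 and 96.9 for Zbtb7a (chr15:81838325-81840564) and was first for Mbd3 and Zbtb7a. The region 17350 bp from Armc12 was first for Mta2 (89.7, 97.2 and 82.4), and its summits lay within 46 bp. Armc12 was thus among the 5 highest for Mta2 and Mbd3 but not for Zbtb7a. The region 32611 bp from Lrrc74a followed with 77.3, 77.5 and 93.5 and its 3 summits within 6 bp, and the region 13632 bp from Heatr6 with 76.8, 85.1 and 82.7. The remaining entries among the 5 highest of a factor were near Cyp2d12, a cytochrome P450 gene, for Mta2, near Rnf6, a ubiquitin ligase gene, for Mbd3 (81.5), and near Cpn2 (91.0), 1700001O22Rik (84.4) and Btbd16 (83.5) for Zbtb7a. At the other end, Mta2 was lowest near Tubb2b (1.44), Gm29258 (1.60) and Mrgprb3 (1.62), Mbd3 near Zfp825 (1.33), Gm36079 (1.44) and Gm39469 (1.53), and Zbtb7a near Gm39469 (1.26), Tcstv3 (1.45) and Tmem196 (1.56).

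A fold below 3 with a −log10 q over 100 was rare. The region near Gm39469 had a Mta2 fold of 2.20 at a −log10 q of 183. Regions with a fold below 3 whose −log10 q was over 100 numbered 2 for Mta2, 1 for Mbd3 and 3 for Zbtb7a. This count leaves out moderate folds at very high −log10 q. The region near Tmem196 had a Mta2 fold of 4.05 at 1433.78 and a Mbd3 fold of 5.50 at 2781.3.

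Few regions favoured 1 factor by rank. The lead of a factor was its percentile rank by fold among the regions minus the mean of the ranks by the other factors. It was over 25 points in 1281 regions for Mta2 (4.56%), in 517 for Mbd3 (1.84%) and in 1444 for Zbtb7a (5.14%). For Mta2 it was largest near S1pr3, a sphingosine 1-phosphate receptor gene (Mta2 12.8, Mbd3 4.73, Zbtb7a 2.67), Bdkrb2, the bradykinin B2 receptor gene (9.39, 2.62 and 3.22), and Wdr27 (11.9, 4.23 and 3.002). For Mbd3 it was largest near Ift81, a gene of transport in cilia (Mbd3 9.95, Mta2 2.62, Zbtb7a 2.19), Ppm1b, a phosphatase gene (9.36, 3.96 and 2.94), and Kcnk9, a potassium channel gene (19.6, 4.78 and 4.71). For Zbtb7a the leaders were near Smug1, a DNA repair glycosylase gene (Zbtb7a 13.2, Mta2 3.55, Mbd3 2.72), Nxph3 (11.8, 3.55 and 2.82) and Nrep (9.04, 3.44 and 2.27). All 9 were single sites of 297 to 910 bp, and the lists hold no value per mouse to say how often such a lead would recur.

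Non-coding genes lay under 6578 of the regions (23.4%), and 76.6% overlapped no RefSeq gene of any other kind. Of 14385 non-coding RefSeq genes in the flanks, 25% were overlapped by a region. Median gene lengths were 8077 bp for lncRNA and 72.5 to 131 bp for tRNA, microRNA, snRNA and snoRNA. A longer gene has more bases to overlap, so 25% is no baseline for the short classes. The share was 43.0% for lncRNA genes (2885 of 6711), which are long, 49.0% for tRNA genes (148 of 302), 15.3% for microRNA genes (38 of the 249 placed in the flanks), 8.85% for snRNA genes (36 of 407) and 5.30% for snoRNA genes (23 of 434). Of pseudogenes, whose median length was 938 bp, 5.38% were overlapped.

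The snRNA genes, whose products splice messenger RNA or, for 7SK, hold back transcription elongation, were overlapped by regions of high median fold. The 36 regions on them had median folds of 18.4 for Mta2, 15.0 for Mbd3 and 13.4 for Zbtb7a, and 17 (47.2%) were in the top 10% of the 28108 regions by Mta2 fold. These 36 regions were also wide, with a median of 1302 bp beside 583 bp for all regions. Medians were 1342.5 bp on tRNA genes, 1039.5 bp on snoRNA genes and 1497 bp on microRNA genes. Fold followed width over all regions, and folds were not matched for width in any of these classes. Highest for Mta2 were 3 regions on chromosome 11 between Rdm1 and Arl4d, over Gm23971 (70.4), Gm24950 (62.6) and Rnu2-10 (60.7), an annotated U2 gene. Their Zbtb7a folds were 48.4, 41.8 and 38.1. A group of 6 (picked, like the 3, after their values were seen) within 29.7 kb on chromosome 12 between Eapp and Snx6 had Zbtb7a folds of 47.6 to 71.2 and Mta2 folds of 26.4 to 40.8. By rank among the 28108 regions, these 6 stood at percentiles 99.4 to 99.9 for Zbtb7a and 94.9 to 99.1 for Mta2. At Rn7sk, the 7SK gene, folds were 43.4, 44.3 and 53.6 with all 3 summits inside the gene, and at Rnu11 they were 38.9, 33.0 and 21.5. Over all 37 pairs of snRNA gene and region, 51.4% of Mta2, 43.2% of Mbd3 and 35.1% of Zbtb7a summits lay within 100 bp of the gene. Many snRNA genes have near-identical copies, and the placing of reads among copies was not tested.

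The 96 regions on tRNA genes were nearer to the rest, with medians of 9.44 for Mta2, 8.74 for Mbd3 and 7.25 for Zbtb7a, and 5 of them (5.21%) were in the top 10% by Mta2, 5 by Mbd3 and 12 by Zbtb7a. The strongest, near Uspl1, overlapped n-TNgtt14 at folds of 28.4, 26.3 and 24.6. Over 151 pairs of tRNA gene and region, 27.8% of Mta2, 26.5% of Mbd3 and 22.5% of Zbtb7a summits lay within 100 bp of the gene. The 20 regions on snoRNA genes, which guide RNA modification, had a median Mta2 fold of 15.1. Their strongest overlapped both Snord1a and Snord1b near St6galnac2 (36.8, 41.9 and 30.2).

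**Figure D3:**
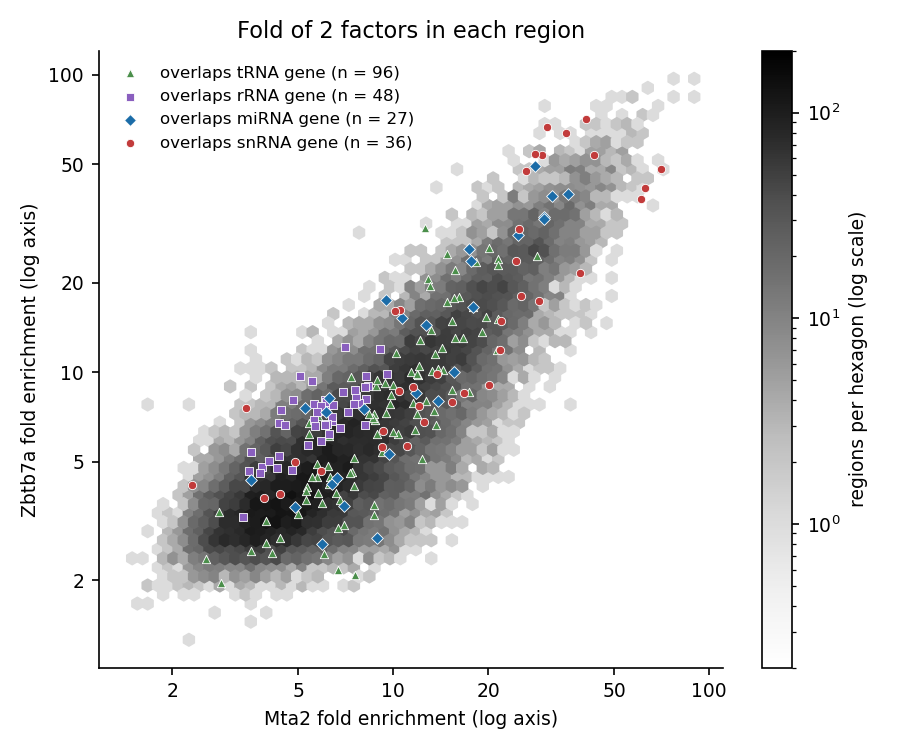
Mta2 and Zbtb7a fold enrichment (both log axes) of the 28108 regions, as hexagons shaded by the number of regions, with regions that overlap small RNA genes as coloured points. The snRNA points reach 70.4 for Mta2 and 71.2 for Zbtb7a, and the rRNA points reach 9.58 and 12.2.

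MicroRNA genes had regions from the strongest to the weakest part of the range, with Mta2 folds of 3.55 to 35.7 and a median of 10.7. The let-7b and let-7c-2 genes lay in 1 region of 3501 bp, 28602 bp from Ppara, with folds of 35.7 for Mta2, 37.8 for Mbd3 and 39.8 for Zbtb7a. Its summits were not on the hairpins but 859 to 1604 bp away from them. The third let-7 gene, let-7i near Mon2, had folds of 29.9, 20.9 and 32.7. All 3 therefore lay in regions of the upper 10% by each fold. The miR-203 region near Aspg had 30.1, 31.1 and 33.3, and the miR-193a region near Rab11fip4 had 28.2, 24.3 and 49.3, the highest Zbtb7a fold at a microRNA gene. The gene of miR-210, a microRNA known to be induced by hypoxia, lay in a region near Rassf7 with 24.8, 21.8 and 28.9. Over all 39 microRNA genes, summits lay a median of 380 bp (Mta2), 294 bp (Mbd3) and 287 bp (Zbtb7a) from the gene. Within 100 bp of the gene were 17.9%, 23.1% and 25.6% of them, so overlap does not place the factors on the hairpins.

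The miR-200 genes sat in regions of unequal strength. The region near Ttll10 that overlapped miR-200b, miR-200a and miR-429 had folds of 17.7, 16.6 and 23.7, and the region at miR-200c near Phb2 had 6.26, 7.14 and 8.23. The miR-192 and miR-194-2 genes shared a region near Atg2a with 6.11, 6.76 and 7.39. It ranked at percentiles 40.5 for Mta2, 56.4 for Mbd3 and 64.5 for Zbtb7a among all regions. The miR-23a, miR-27a and miR-24-2 cluster near Zswim4 had 10.7, 8.88 and 15.2, and miR-155, known from immune cells, had 4.88, 3.52 and 3.53.

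At lncRNA starts, 1000 of 5214 windows in the flanks (19.2%) were overlapped by 874 regions. These regions had median folds of 10.7 for Mta2 (9.89 to 11.4), 8.94 for Mbd3 (8.29 to 9.68) and 8.47 for Zbtb7a (7.90 to 9.11), beside 7.10, 5.94 and 5.45 in the other regions. By Mta2 fold 20.1% of them were in the top 10%. Their median width was 923 bp, beside 583 bp for all regions, and folds were not matched for width. The median position of the Mta2 summit was -31 bp relative to the start. Upstream of the start lay 56.1% of Mta2 summits, beside 56.5% for Mbd3 and 55.9% for Zbtb7a. The windows reach further before the start than after it, and regions were taken by overlap with these windows. The median position and these shares therefore cannot show a preference of the factors for either side of the start. In 366 regions all 3 strongest summits fell inside a window. Among the sequences printed above, Gm15889 lay in a region with folds of 47.3, 60.8 and 58.8 and Gm40925 in 1 with 55.7, 52.4 and 52.8. The GC-rich Gm34507 window had 49.4, 47.7 and 47.9. These windows were chosen by fold, so their folds are a description of that choice.

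Starts under a region held a GC box or many CpG more often than starts with no peak, and about as often as starts under a region that lacked a factor. The median G or C content was 50.7% in the 1000 windows with a region and 47% in 3940 windows with no peak, and 10 or more CpG were found in 24.8% (22.2 to 27.6) and 5.76% (5.05 to 6.54). A GC box (GGGCGG, both strands) was in 22.9% (20.3 to 25.6) and 6.98% (6.20 to 7.82), an ETS site (CCGGAAG) in 5.9% and 2.36%, and AGGGGGC, a part of the CTCF motif, in 8.4% and 4.04%. In 274 windows overlapped only by regions without all 3 factors, 20.4% (15.8 to 25.7) held 10 or more CpG and 17.9% (13.5 to 22.9) a GC box, so these intervals overlap those of the three-factor regions. The AP-1 letters TGANTCA were in 9.8% and 10.9%, the nuclear receptor letters AGGTCA in 22.6% and 20.4%, and the hexamer GGACCC, part of a Zbtb7a motif, in 13.1% and 11.1%. Of all 32585 windows in the table, those of coding genes included, 43.7% held 10 or more CpG, 35.9% a GC box, 8.92% an ETS site and 17.5% the GGACCC hexamer. Of all 11573 lncRNA windows, 19.1% held 10 or more CpG and 16.3% a GC box. The GC box and the CTCF letters may overlap in a sequence, and base composition was not matched between the windows.

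Most regions came in company. With gaps of at most 12500 bp between midpoints, the 28108 regions formed 12655 runs. Of the regions, 6945 (24.7%) stood alone and 3278 (11.7%) belonged to 232 runs of 10 or more. Median Mta2 fold was 6.36 in lone regions, 7.24 in runs of 2 to 4, 7.93 in runs of 5 to 9 and 8.38 in runs of 10 or more, and Mbd3 and Zbtb7a followed the same order (5.34 to 6.95 and 4.72 to 6.53).

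The run of most regions, 53 over 90.8 kb between Gas8 and Rhou (chr8:123538447-123629289), lay on the 5S ribosomal RNA gene array. All 48 rRNA genes of the table within it were overlapped, 1 per region, and regions were spaced by a median of 1684.5 bp beside 1698 bp for the genes. Folds were even and moderate, from 3.35 to 9.58 for Mta2, 2.31 to 9.29 for Mbd3 and 2.61 to 12.2 for Zbtb7a, and on rRNA genes 87.5% of Zbtb7a summits lay within 100 bp of the gene. No rRNA gene outside the run was overlapped. The copies are repeats, so these regions are not independent sites, and the placing of reads among copies was not tested.

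The next 4 runs did not lie on such an array. Between Wnt7b, a ligand gene, and Ppara, the gene of a nuclear receptor that drives fatty acid oxidation, 40 regions in 132 kb (chr15:85598869-85731200) had Mta2 folds of 2.05 to 35.7, and the let-7b and let-7c-2 region was the highest of them for every factor. The run of 39 near Cpeb4, a gene of translational control, and Bod1 reached 43.9 for Mta2 and 61.5 for Zbtb7a. The run of 35 at 3110040M04Rik reached 37.5 for Mta2 and 24.6 for Zbtb7a. The run of 32 at 1700001O22Rik and Cstad held the Zbtb7a fold of 84.4 named above. Unlike the 5S array, each of these runs mixed weak and strong regions.

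**Figure D4:**
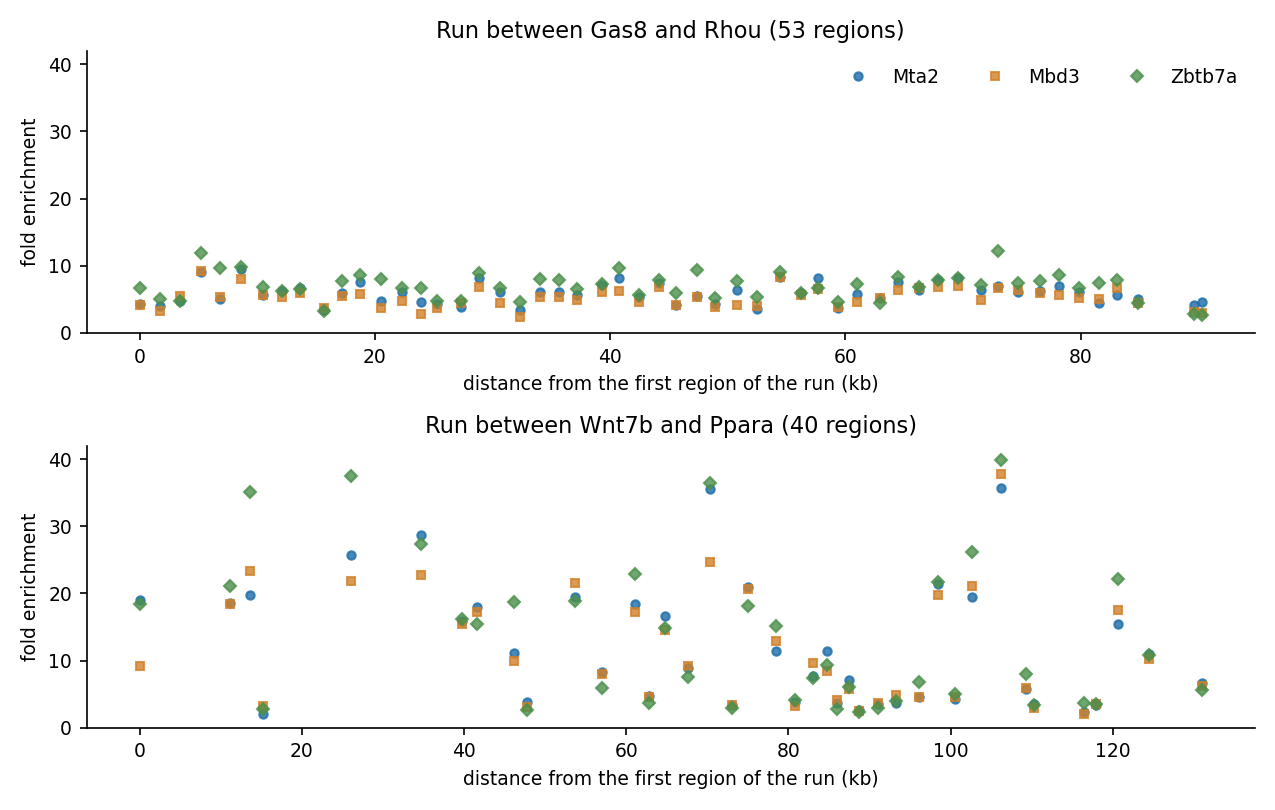
Fold enrichment of each factor in every region of the 2 runs of most regions, against the distance in kb from the first region of the run. Points are regions. On the 5S array all folds stay at or under 12.2, and between Wnt7b and Ppara they range up to 39.8.

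Of 21631 protein-coding genes, 9023 (41.7%) were the nearest gene of at least 1 region. The nearest gene is a label of position and need not be the gene a region acts on. There were 3586 genes with 1 region, and 453 genes with 10 or more took 21.8% of all regions. Among the genes with most regions were 3110040M04Rik (38), Gas8 (34, most of them the 5S repeats), Tle3, a Groucho-type corepressor gene (32), and Irf2bp2, another corepressor gene (31). The best Tle3 region had folds of 55.1 for Mta2, and its flank spans 198 kb. Of 2732 genes with at least 100 kb of flank, 806 (29.5%) had none.

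Peaks carry no expression, so the tissue label could not be checked by the level of marker genes. Kidney genes were read from 15 lists of marker and pathway genes, as the share of genes with a region (41.7% over all genes) and as regions per Mb of flank (35.2 over all flanks). Flanks differed in length, from a median of 6.83 kb for NuRD genes to 115 kb for neuronal genes, and lists of 15 to 24 genes give wide intervals. Density over all flanks fell from 53.9 per Mb at 1 to 2 kb to 24.2 at 50 to 100 kb. The lists were not matched for flank length, so a list of short flanks is not on a par with 35.2. Shares count genes with no flank, and among genes with any flank 46.6% had a region. Of 24 proximal tubule genes 19 had a region (79.2%, 57.8 to 92.9), at 110 per Mb, with a median Mta2 fold of 11.1. Slc22a12, the urate transporter gene, had 15, of which the strongest lay 5900 bp away (chr19:6547790-6550149) with folds of 47.6, 48.4 and 50.4. Kap, the kidney androgen-regulated protein gene, had 10, up to 33.2 for Mta2. Slc34a1, Slc34a3, Slc5a2, Ggt1 and Miox had none, but their flanks were short, from 0.567 kb (Ggt1) to 9.87 kb (Miox).

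Fatty acid oxidation, on which the proximal tubule relies, had 99.5 regions per Mb and 11 of 20 genes with one (55%, 31.5 to 76.9). Acadvl, Hadha, Etfdh and Eci1, among the genes with none, have 0 kb of flank. The count of regions in this list leaned on Abcd3, a peroxisomal transporter gene with 14 regions (best 26.0, 24.9 and 35.2). Kidney transcription factor genes had a region in 21 of 24 cases (66.6 per Mb), led by Ppara with 28 and Maf with 17. The best Maf region, 12460 bp away, had folds of 37.8, 44.6 and 38.1. Six2, the gene of nephron progenitors, and Hnf4g had none in flanks of 116 kb and 99 kb, and Esrra has 0 kb of flank.

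Of 22 podocyte genes 13 had a region (57.7 per Mb). Vegfa, the endothelial growth factor that podocytes secrete, had 22, the best with folds of 38.6, 43.4 and 50.3 at 22400 bp, and Podxl, the podocalyxin gene, had 13. The slit diaphragm gene Nphs1 had none in a short flank of 1.48 kb. Trpc6 and Magi2 had none in flanks of 198 kb and 124.9 kb. Endothelial genes had 15 of 16 (63.9 per Mb), led by Kdr, the VEGF receptor gene, with 14 and by Ehd3 with 10. The Kdr region of highest Mta2 fold had 20.5, 10.98 and 12.01, so its Mta2 rank stood above its Mbd3 and Zbtb7a ranks.

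Genes of the loop and distal tubule stood at the level of all flanks (35.3 per Mb, 13 of 19 genes). Kcnj1, the ROMK potassium channel gene, had 5 regions, the best with folds of 42.4, 25.6 and 13.9. Kcnj16, another potassium channel gene, had 4, the best with 48.0, 45.4 and 37.3. Slc8a1, Calb1 and Klhl3 were among the genes with none, in flanks of 198, 103 and 45.1 kb. Collecting duct genes had 40.7 per Mb (12 of 18 genes). Tfcp2l1, a transcription factor gene, led with 12, and Atp6v1g3, a proton pump subunit gene, had 6. Nr3c2, Scnn1b, Aqp3 and Slc26a4 were among the genes with none, in flanks of 100.7, 48.3, 28.4 and 25.2 kb. Stromal genes had 29.6 per Mb (Foxd1 8 and Gata6 6), and immune genes 25.2 (5 of 16 genes; Ptprc, which encodes CD45, 4 and Csf1r 2).

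Lists from outside the cortex covered the range below and around the level of all flanks. Neuronal genes had 10.6 regions per Mb (9 of 16 genes), with 5 at Gad1 and 2 at Snap25. Hepatocyte genes had 36.5 (11 of 16), with 6 at Ttr and 5 at Apob, whose best region reached 31.8 for Mta2. Germ cell genes had 37.6, of which Tnp1 (9) and Odf1 (8) held most. Median Mta2 folds were 5.70 for neuronal, 6.88 for hepatocyte and 6.94 for germ cell genes. They were 5.56 for loop and distal tubule, 7.41 for podocyte, 7.61 for collecting duct and 11.1 for proximal tubule genes. Highest Mta2 folds per list were 31.8 for hepatocyte (Apob), 29.2 for neuronal (Snap25) and 21.6 for germ cell genes (Tnp1). They were 47.6 for proximal tubule (Slc22a12), 48.0 for loop and distal tubule (Kcnj16) and 38.6 for podocyte genes (Vegfa). The highest of the collecting duct genes, near Atp6v1g3, lay below those near Apob and Snap25. Each is a single region, and the loop and distal tubule median lay below the hepatocyte, neuronal and germ cell medians.

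Among broadly used genes, stress and immediate early genes had a region in 18 of 20 cases (71.1 per Mb). Gadd45a, a DNA damage gene, led with 15, followed by Fos with 13. The Gadd45a region of highest Mta2 fold had 35.4, 29.9 and 17.7, and the highest Zbtb7a fold near Gadd45a was 23.9. Ribosomal protein genes had 64.7 per Mb in short flanks (10 of 20), with 6 each at Rpl3 and Rpl14, and the lowest median Zbtb7a fold of the 15 lists, 3.58. NuRD subunit genes had 6 of 15, at 49.7 per Mb, with 8 at Mbd2, whose product replaces Mbd3 in a variant complex, and 5 at Gatad2a. Mbd3 had 1 in a flank of 2.18 kb. The Mta2 gene has 0 kb of flank, so no region could be counted there.

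**Figure D5:**
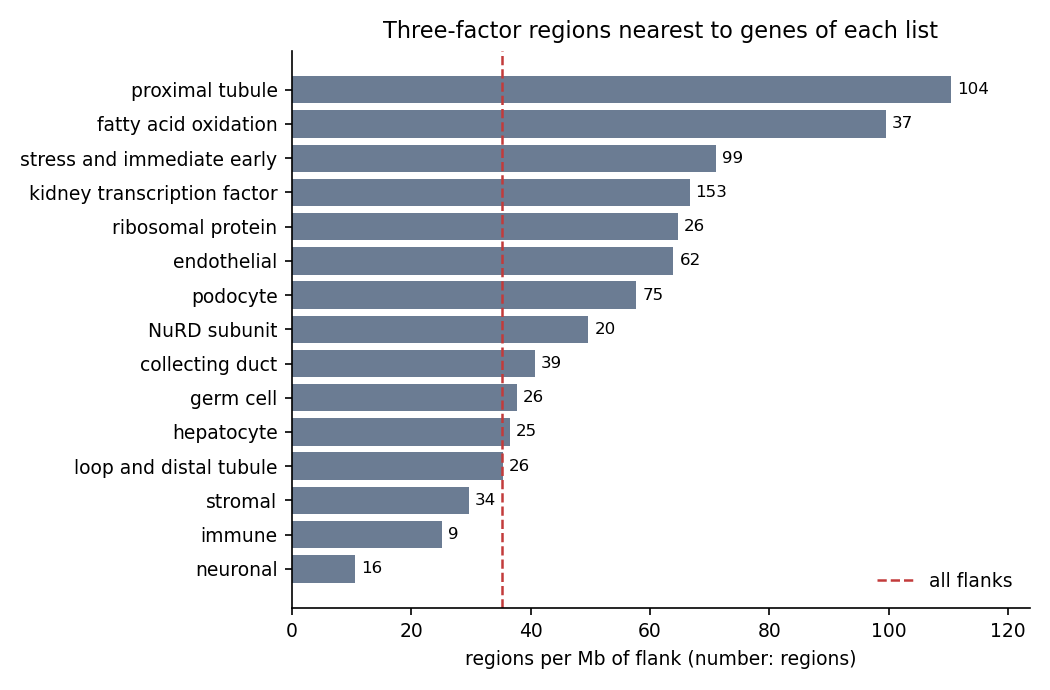
Three-factor regions per Mb of intergenic flank for the genes of 15 lists, with the number of regions at the end of each bar and the level of all flanks (35.2) as a dashed line. Proximal tubule genes are at 110 and neuronal genes at 10.6. Lists were not matched for flank length.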

How the data were processed

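Chromatin from kidney cortex of 2 mice, the same in every group by the numbers in the titles, was immunoprecipitated for Mta2, Mbd3 and Zbtb7a, with Input as the fourth group. Bowtie2, deepTools, MACS2, bedtools and the mm10 build are named per the submitters' processing notes, versions not given in the sources used here. What the authors deposited was 1 peak list per factor in narrowPeak layout. The fold is the authors' ratio of signal over background at the summit, and the deposited −log10 q values and summit offsets are the authors' own. How the mice were combined is not stated, so p-values over animals cannot be had and none are given. Peaks below the authors' threshold are absent, and the smallest −log10 q in the regions was 1.30.

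Merging, annotation and counts were computed with Python 3.11.15, numpy 2.4.6, pandas 2.3.3 and scipy 1.17.1, figures were drawn with matplotlib 3.10.9, and the scripts were tested on simulated data. RefSeq for GRCm38.p6 gave the gene positions (21631 protein-coding genes). Intervals are 95% exact (Clopper-Pearson) binomial for shares and order-statistic for medians, and cover counting error only. The table of starts gives a strand for too few coding genes to split regions by 5′ and 3′ side. Sequences at the summits were not used here, so motifs were counted only at lncRNA starts, and that table holds no chromosome 18.

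Regions were named by rule: the 5 highest and 3 lowest folds and the 3 largest rank leads per factor, the 5 runs of most regions, the 5 genes with most regions, the top 2 genes per list, and the regions next to each limit. Some genes and regions that the rule names are not reported here. Other genes, microRNAs and non-coding genes were chosen after values were seen. The members, the 15 lists (278 genes, all matched) and the rules were chosen with earlier results of these data known. Alternatives were a −log10 q of at least 10, overlap of 50% of the shorter interval, distances of 2 to 50 kb, gene ends of all RefSeq genes, a width under 2000 bp, other summit distances and the peak of highest −log10 q.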

Additional observations from a re-analysis of the deposited data

Results flagged for a closer look

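Peaks on chromosome Y were left out of the regions by their definition. There were 143 of them in the Mta2 list, 156 in the Mbd3 list and 80 in the Zbtb7a list. They are flagged as signal in data that the report does not use.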

How the results depend on the processing

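The number of regions stayed within 1.5 times of 28108 under all 5 alternatives that redefine them (18818 with a −log10 q of at least 10, 27924 with 50% overlap, 21493 at 2 to 50 kb, 25671 with all RefSeq genes, 27426 under 2000 bp). At the −log10 q minimum of 10, the share among regions of 3 factors was 26.8%, median folds were 9.95 (Mta2), 8.36 (Mbd3) and 7.78 (Zbtb7a), summits lay within 100 bp in 90.1% and 33.9% of genes had a region. At 2 to 50 kb the share was 21.2%, the median distance 13740 bp and the genes with a region 37.2%. With the ends of all RefSeq genes these were 25.4%, 9679 bp and 38.0%, the median folds 7.09, 5.84 and 5.28, and summits within 100 bp 86.0%. Under 2000 bp the share was 27.1% and the medians 7.09, 5.87 and 5.34. With 50% overlap, summits within 100 bp made 86.1%. Limits of 50 bp and 250 bp gave 60.4% and 95.0%. A −log10 q minimum removes weak peaks, and the distance limits set the distances by construction. For the other moves the cause was not tested. The other 22 values moved by less than their interval or, for counts, stayed within 1.5 times. No paired analysis was possible because each list pools both mice of its group, and for the same reason no replicate could be left out. Depth limits the absence of a peak, which cannot be read as absence of binding.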
